A study of Homo sapiens with 6 samples.

Results

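Mammalian mitochondria hold their own ribosomes, which translate the few mRNAs of the mitochondrial genome into subunits of the respiratory chain and the ATP synthase. The proteins of these ribosomes, the factors that drive initiation, elongation and recycling, the aminoacyl-tRNA synthetases that charge mitochondrial tRNAs and the enzymes that transcribe mitochondrial DNA are almost all encoded in the nucleus and imported. The genes examined here were chosen by name: every row of the expression table whose symbol begins with MRPL, MRPS or TFB, the symbols that end in ARS2, and TUFM, TSFM, MTIF2, MTIF3, GFM1, GFM2, DAP3, POLRMT, TFAM and LRPPRC. This gave 104 protein-coding genes among 10066 assembled loci (10515 rows), and no row that matched was a pseudogene. They comprise 50 proteins of the large subunit, 28 of the small subunit, 6 translation factors, 15 aminoacyl-tRNA synthetases and 5 genes of transcription and RNA stability. MRPS18A and MRPS30 were counted with the large subunit, where their proteins reside in spite of their names, and DAP3 with the small subunit. All other MRPL and MRPS genes, MRPS36 among them, were placed by symbol alone, and whether each protein is part of the ribosome was not checked. MTRF1 and MTRF1L were also looked for and were not found among the names in the table.

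RNA was taken from 3 human bladder cancer cell lines after 2 days with quisinostat, a pan-inhibitor of histone deacetylases (HDACs), or with the solvent DMSO. RT4 and RT112 carry an FGFR3-TACC3 fusion and SW780 an FGFR3-BAIBP2L1 fusion, and each culture is an established tumour line. Quisinostat was given at 50 nM to RT4, 10 nM to RT112 and 25 nM to SW780, so that dose and cell line change together and cannot be told apart. The cell line tag of the treated SW780 sample is spelt differently from its title, and the sample was grouped by its title. There was 1 library for each line and treatment, 6 in all, and hence no replicate within a line. Values are FPKM, in which fragments are divided by transcript length and by library size, and the depth of the libraries is unknown. The FPKM sum of a library ran from 237363 to 263856, its median over loci from 6.59 to 7.39, and 213 to 534 loci were at 0. All 18 urothelial and epithelial markers looked up were in the table and 13 were at 1 FPKM or more in every library, for instance KRT8 between 121 and 291 FPKM. The others were KRT5, KRT20, UPK1A, UPK3A and FGFR3, with lowest values of 0.01, 0.336, 0.178, 0 and 0.621 FPKM. That of FGFR3 was in SW780 with quisinostat. Of 5 markers of other cell types only COL1A1, a fibroblast collagen, was found among the names, at 0.034 to 1.45 FPKM and higher with quisinostat in each line. Its part in the results was not tested.

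All 104 genes were above 0 in all 6 libraries and had a mean of at least 1 FPKM, so that no filter on low values removed any of them. The name of another gene stood on the same assembled locus for 13 of them, and the value of such a locus cannot be divided between its genes. In the GENCODE 29 annotation 51 of the 104 overlap the body of another coding gene, 16 on the same strand and 39 on the opposite strand. Because the strand setting of the authors' quantification is not given in the sources used here, reads from overlapping partners may not be fully separated.

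Upstream sequences of the genes whose response had the same direction in all 3 lines are shown first, because the promoters of nuclear genes for mitochondrial proteins are known for binding sites of ETS-family factors such as GABP, of NRF1 and of YY1. RefSeq promoters (GRCh38.p14, 300 bases from 250 before to 50 after a transcription start) were found for 93 of the 104 genes. The letters CCGGAAG, the core of ETS sites, were present on either strand in 42 of the 93 (45.2%), against 23.4% of 7249 genes of the table with a promoter and 12.2% of 27305 genes in all. The letters AAGATGGC, the core of YY1 sites, were in 24 (25.8%), against 7.15% and 3.52%. The NRF1 letters, GCGC and TGCGC with any base between them, were in 14 (15.1%), against 13.8% and 6.98%. CCAAT was in 36 (38.7%), against 43.7% and 39.7%. The ETS and YY1 cores can share the letters AAG, so that overlapping matches count for both. These matches are letters in a window and not measured sites. Each sequence below runs in the direction of its gene, is the stretch nearest the start, of at least 60 and at most 150 bases, that no exon of a coding transcript covers in GENCODE 29, and carries any match to those letters in capitals.
MRPL27, chr17:50373278-50373427, minus strand: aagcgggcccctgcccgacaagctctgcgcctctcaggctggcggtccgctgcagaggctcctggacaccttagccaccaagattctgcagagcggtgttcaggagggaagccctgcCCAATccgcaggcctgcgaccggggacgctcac
MRPL45, chr17:38296918-38297022, plus strand: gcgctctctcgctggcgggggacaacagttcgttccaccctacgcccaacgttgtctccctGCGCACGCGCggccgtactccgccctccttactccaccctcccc
MRPL58, chr17:75012520-75012669, plus strand: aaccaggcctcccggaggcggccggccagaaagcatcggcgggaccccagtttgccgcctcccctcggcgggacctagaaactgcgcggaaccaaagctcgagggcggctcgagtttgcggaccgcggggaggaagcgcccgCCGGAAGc
MRPS18B, chr6:30617590-30617708, plus strand: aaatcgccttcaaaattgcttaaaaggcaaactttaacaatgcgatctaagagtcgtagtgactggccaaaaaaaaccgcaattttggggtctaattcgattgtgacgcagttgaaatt
MRPS6, chr21:34073373-34073522, plus strand: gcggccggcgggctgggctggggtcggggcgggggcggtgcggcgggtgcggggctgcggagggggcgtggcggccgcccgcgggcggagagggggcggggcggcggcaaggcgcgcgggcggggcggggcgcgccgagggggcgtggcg
WARS2, chr1:119140673-119140822, minus strand: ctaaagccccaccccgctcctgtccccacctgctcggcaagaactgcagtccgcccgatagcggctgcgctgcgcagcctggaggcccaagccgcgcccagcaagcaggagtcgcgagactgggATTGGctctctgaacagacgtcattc
TARS2, chr1:150487214-150487363, plus strand: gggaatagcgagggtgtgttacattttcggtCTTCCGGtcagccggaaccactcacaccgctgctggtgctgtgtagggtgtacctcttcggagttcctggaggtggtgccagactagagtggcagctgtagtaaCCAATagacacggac
The stretches upstream of MRPL58 and TARS2 each hold an ETS core, and the latter and those of MRPL27 and WARS2 a CCAAT box. The MRPL45 stretch holds the NRF1 letters, read on the opposite strand. Neither MRPS18B nor MRPS6 shows a match in the bases printed. Elsewhere in the 300-base windows, outside the printed stretches, the further letters found were a YY1 core for MRPS18B, MRPL45 and WARS2 and an ETS core for MRPL27, and none was found for MRPS6. The GC contents of these stretches lie far apart, at 37.8% for MRPS18B and 90.7% for MRPS6. The stretches of MRPL58 and WARS2 end 1 base before the RefSeq start and those of MRPS6 and TARS2 56 bases before it. Those of MRPL27, MRPS18B and MRPL45 end 94, 132 and 146 bases before it, so the bases nearest these starts are not printed. The MRPL27 stretch lies in the body of the divergently transcribed gene EME1, and that of MRPS6 lies inside the GENCODE body of MRPS6 itself. MRPL2 had no entry in the promoter table. Under quisinostat, genes with the ETS core had medians of -0.10, -0.10 and 0.05 (log2 ratio, quisinostat over DMSO, in the order RT4, RT112, SW780), and the 51 without it had -0.08, -0.22 and -0.04, a difference that was not tested. The 24 with the YY1 core had medians of -0.29, -0.21 and -0.09 and the 69 without it -0.06, -0.20 and -0.0013. The 14 with the NRF1 letters had -0.15, -0.13 and -0.0032, beside -0.09, -0.20 and -0.02 for the 79 without. These differences were not tested either.

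With DMSO the 104 genes together made up 0.877% of the FPKM sum in RT4, 0.861% in RT112 and 0.975% in SW780. With quisinostat these shares were 0.798%, 0.757% and 0.979%. Their median levels with DMSO were 16.6, 14.4 and 14.8 FPKM in the same order. By mean FPKM with DMSO, MRPS15 and MRPL3 were the highest. MRPS15, a small-subunit protein with a bacterial homologue, stood at 89.1 FPKM in RT4, 66.8 in RT112 and 78.7 in SW780, and at 74.8, 49.9 and 74.4 with quisinostat. MRPL3 of the large subunit stood at 63.2, 100.4 and 68.0 FPKM with DMSO and at 54.0, 70.8 and 67.0 with quisinostat. Of these genes' ratios only those of RT112 (-0.42 and -0.50) were past 0.3. At the other end were MRPL53, a large-subunit protein with no bacterial homologue, at 3.02, 4.64 and 2.71 FPKM with DMSO, and MRPS25 at 5.21, 3.19 and 3.44.

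Levels with DMSO lay close together across the 3 lines. The highest and lowest line were within 2-fold for 79 of the 104 genes, and for 85 with quisinostat. The median of the log2 range over the lines was 0.67 with DMSO and 0.64 with quisinostat, beside 0.97 and 1.03 for all loci. MRPL27 had the narrowest range with DMSO, 1.04-fold, and POLRMT the widest, 4.99-fold, from 8.82 FPKM in RT4 through 3.24 in RT112 to 1.77 in SW780. RT4 was the highest line for 41 genes, RT112 for 26 and SW780 for 37. Matching shares of all loci were not counted for these numbers or for those within 2-fold, so neither can be read as particular to these genes.

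The response was measured as the log2 ratio of FPKM, quisinostat over DMSO, within a line, over the 9112 loci above 0 in all 6 libraries. The study asked which transcripts are lower in all 3 lines and used a limit of 0.3 on the log2 scale. In RT4 42 of the 104 genes were below -0.3 (40.4%, all loci 33.5%) and 21 were above 0.3 (20.2%, all loci 40.3%). In RT112 36 were below (34.6%, all loci 25.2%) and 15 above (14.4%, all loci 36%). In SW780 23 were below (22.1%, all loci 28.2%) and 14 above (13.5%, all loci 32.8%). The share above the limit was thus smaller than among all loci in every line, while the share below it was larger in RT4 and RT112 and smaller in SW780. Medians were -0.13, -0.20 and -0.01 in RT4, RT112 and SW780, beside 0.08, 0.06 and 0.04 for all loci. Rescaling the libraries to the same FPKM sum shifts every ratio of a line by 0.06, -0.01 and 0.04 and centring on the median of all loci by -0.08, -0.06 and -0.04, so a median within these distances of 0 has no firm sign, the SW780 median among them.

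**Figure D1:**
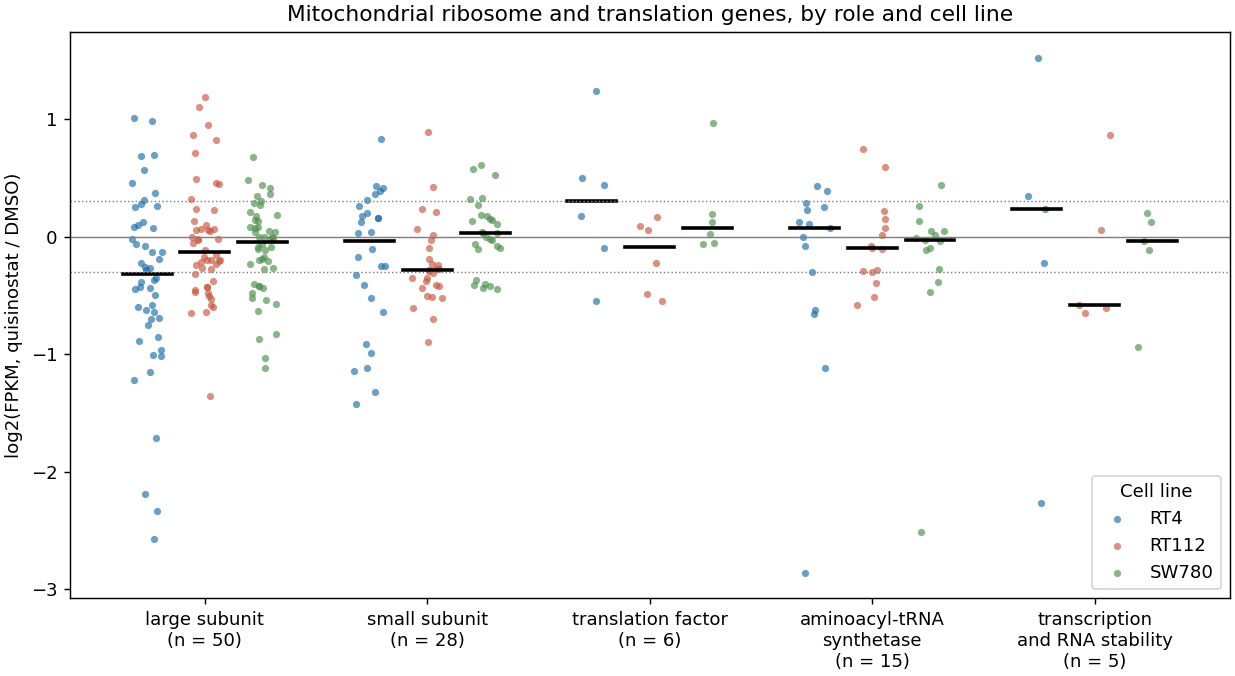
Each point is a gene, coloured by cell line, and its height is the log2 ratio of FPKM, quisinostat over DMSO; black bars are medians and dotted lines mark -0.3 and 0.3. The large-subunit genes of RT4 reach from -2.58 to 1.01 with a median of -0.32, while those of SW780 stay between -1.12 and 0.68 with a median of -0.04.

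The 5 roles did not share a common order across lines. Large-subunit genes had medians of -0.32, -0.13 and -0.04 in RT4, RT112 and SW780, and 25, 14 and 13 of the 50 were below -0.3. These were 50%, 28% and 26% of them, beside 33.5%, 25.2% and 28.2% of all loci. Small-subunit genes had medians of -0.04, -0.29 and 0.03, and 10, 13 and 6 of the 28 were below -0.3 (35.7%, 46.4% and 21.4%). The shares of the small subunit in RT4 and of the large subunit in RT112 were near those of all loci. In SW780 both subunits were below the share of all loci. In RT4 the lower ratios were therefore mostly in the large subunit and in RT112 proportionally more often in the small one, a difference that was not tested. It was not seen in RT4 after a correction for GC content, in which a smooth curve of ratio on transcript GC content was subtracted in each line. Corrected medians were then -0.23, -0.21 and -0.08 for the large subunit and -0.22, -0.27 and -0.02 for the small. Within the large subunit, the 28 proteins with a bacterial homologue had medians of -0.31, -0.19 and -0.02, and the 22 without had -0.33, -0.03 and -0.14. Below -0.3 in SW780 were 14.3% of the former and 40.9% of the latter (all loci 28.2%), while their corrected medians in that line were -0.08 and -0.06. Translation factors had medians of 0.31, -0.09 and 0.08, synthetases of 0.07, -0.10 and -0.03, and the 5 transcription and RNA stability genes of 0.24, -0.58 and -0.04. None of the positive RT4 medians remained above 0 with the GC correction, which gave -0.01, -0.19 and 0.04 for translation factors, -0.08, -0.15 and -0.11 for synthetases and -0.15, -0.41 and -0.15 for the transcription and RNA stability genes. As a reference in the same libraries, 83 loci of cytosolic ribosomal proteins had medians of -0.47, -0.27 and -0.16, with corrected medians of -0.56, -0.26 and -0.19. Of these loci 56, 37 and 30 were below -0.3 (67.5%, 44.6% and 36.1%).

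Below -0.3 in all 3 lines were 7 genes, 6.73% of the 104 beside 4.99% of all loci, a share near that of all loci. They were MRPL2, MRPL27, MRPL45, MRPL58, MRPS6, MRPS18B and WARS2. One gene, TARS2, was above 0.3 in all 3 (0.962%, all loci 11.4%). The values of the 7 in the line nearest to the limit ran from -0.47 (MRPL27) to -0.35 (MRPS18B), and the next genes outside were MRPS27 at -0.28, MRPL48 at -0.27 and MRPS7 at -0.24. In FPKM as deposited, 29 genes were below 0 in all 3 lines (27.9%, all loci 16.6%) and 10 above 0 in all 3 (9.62%, all loci 22.9%).

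MRPL27 (chromosome 17, 50367857 to 50373214, minus strand, GRCh38) is the counterpart of bacterial L27, which reaches toward the peptidyl transferase centre. It stood at 24.2 FPKM in RT4, 24.7 in RT112 and 25.2 in SW780 with DMSO and at 16.2, 17.8 and 16.9 with quisinostat. The 3 treated libraries lay below the 3 controls without overlap, with log2 ratios of -0.58, -0.47 and -0.57. Because these genes were chosen for lower treated values in every line, such separation, here and below, is no further support. Its share among all loci was not counted. MRPL58 (chromosome 17, 75012670 to 75021261, plus strand) is a peptidyl-tRNA hydrolase built into the large subunit that frees stalled ribosomes. Its FPKM were 36.3, 28.8 and 39.1 with DMSO and 22.4, 21.4 and 27.99 with quisinostat, ratios of -0.69, -0.43 and -0.48, and again the groups did not overlap. MRPL45 (chromosome 17, 38297023 to 38323218, plus strand), which sits at the polypeptide exit and ties the ribosome to the inner membrane, had 33.2, 24.7 and 39.6 FPKM with DMSO and 20.4, 17.1 and 29.6 with quisinostat. Its ratios were -0.70, -0.53 and -0.42, and the groups overlapped, SW780 being the highest line under both conditions. MRPL2 (chromosome 6, 43054029 to 43059806, minus strand), a core protein of the large subunit that binds its rRNA, was at 10.0, 11.2 and 10.3 FPKM with DMSO and at 5.95, 7.38 and 7.72 with quisinostat, ratios of -0.76, -0.60 and -0.42 with no overlap.

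Among the small-subunit genes, MRPS18B (chromosome 6, 30617709 to 30626395, plus strand), a paralogue of MRPS18C counted here among the proteins without a bacterial homologue, stood at 48.8, 42.4 and 51.5 FPKM with DMSO and at 24.6, 33.3 and 38.8 with quisinostat. Its treated libraries were all below its controls, with ratios of -0.99, -0.35 and -0.41. MRPS6 (chromosome 21, 34073224 to 34143034, plus strand) shares its assembled locus with SLC5A3, a myo-inositol transporter gene. The locus had 7.48, 20.2 and 8.70 FPKM with DMSO and 5.63, 10.9 and 6.41 with quisinostat, and its ratios of -0.41, -0.89 and -0.44 belong to both genes together. WARS2 (chromosome 1, 119031216 to 119140671, minus strand), which charges mitochondrial tRNA with tryptophan, went from 5.92, 3.68 and 4.09 FPKM with DMSO to 3.76, 2.45 and 2.95 with quisinostat, ratios of -0.66, -0.58 and -0.47, with RT4 the highest line before and after treatment. TARS2 (chromosome 1, 150487364 to 150507609, plus strand), the threonine enzyme, was the one gene with the opposite pattern, at 9.93, 8.26 and 15.0 FPKM with DMSO and 13.4, 12.5 and 20.4 with quisinostat, ratios of 0.44, 0.59 and 0.44.

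**Figure D2:**
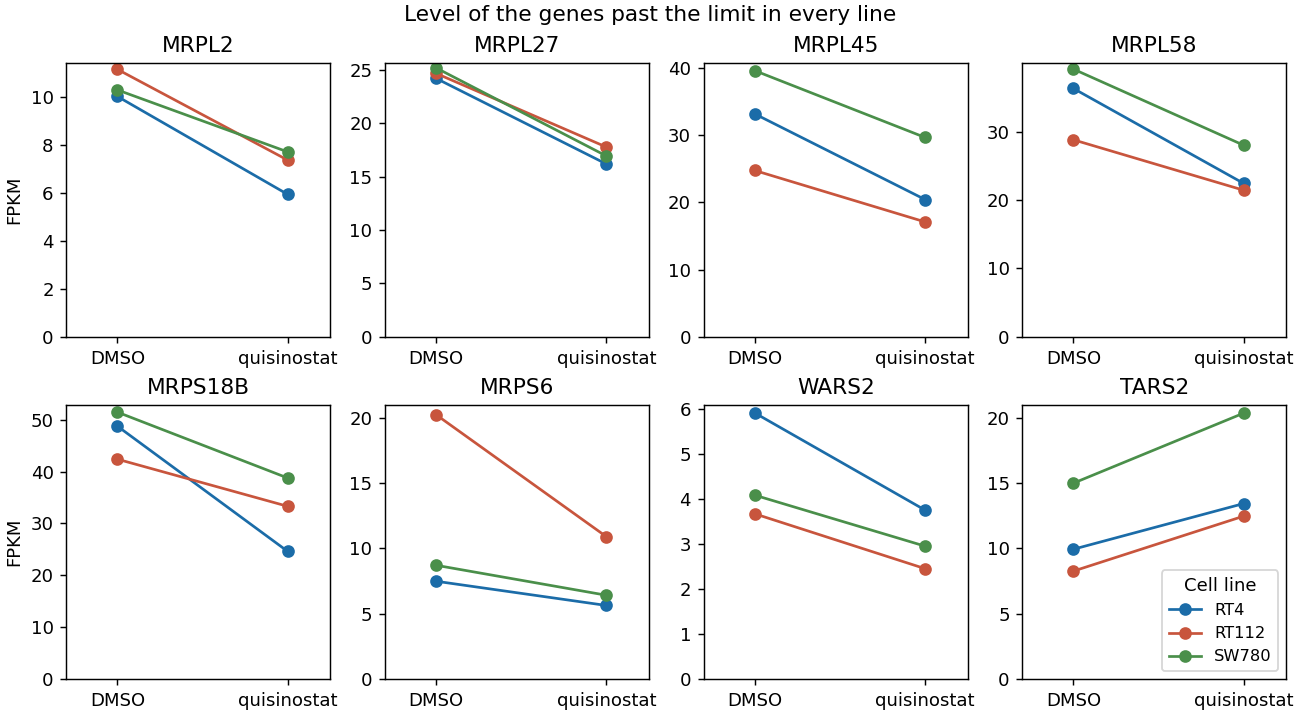
FPKM (vertical axis, starting at 0 in each panel) of the 7 genes below -0.3 and of TARS2, with DMSO and with quisinostat; a line joins the 2 libraries of a cell line. For MRPL27 the controls lie at 24.2 to 25.2 and the treated libraries at 16.2 to 17.8, while the TARS2 lines all slope upward.

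The lines were then used as replicates in limma on log2(FPKM + 1), with cell line as a block, over 9430 loci. No locus passed an adjusted p of 0.05 (0%), and the lowest Benjamini-Hochberg adjusted p of the 104 genes in limma was 0.32. At an unadjusted p under 0.05, 6 of the 104 were lower, beside 392 loci (4.16%), and 1 was higher, beside 913 loci (9.68%). The 6 were MRPL27, MRPL45, MRPL58, MRPL2, MRPS18B and SARS2, and the 1 was GFM2. For MRPL27 and MRPL58 the mean log2 fold change was -0.52 ± 0.18 (SE, n = 3 lines) for each, with a limma adjusted p of 0.32 for each. For MRPL45 it was -0.53 ± 0.18 and for WARS2 -0.45 ± 0.23, with limma adjusted p of 0.32 and 0.44. TARS2 had 0.45 ± 0.19 and a limma adjusted p of 0.36. None of these differences is therefore established beyond the spread between lines once all loci are counted.

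The synthetases showed the lowest ratio of the whole set. SARS2 (chromosome 19, 38915266 to 38930896, minus strand), the mitochondrial serine enzyme, stood at 17.8 FPKM in RT4, 6.61 in RT112 and 9.73 in SW780 with DMSO and at 2.44, 7.33 and 1.70 with quisinostat. RT4 and SW780 thus had ratios of -2.86 and -2.52, and RT112 had 0.15. Across lines the limma log2 fold change was -1.44 ± 0.52 (SE, n = 3 lines), with an adjusted p of 0.34 in limma. The cytosolic serine enzyme SARS, named after its values were seen, had 45.5, 43.2 and 54.7 FPKM with DMSO and 66.9, 45.7 and 76.1 with quisinostat, ratios of 0.56, 0.08 and 0.48. SARS2 and MRPS12, a small-subunit gene named here after its values were seen, are transcribed in opposite directions from starts whose annotated bodies overlap by 348 bases. MRPS12 stood at 26.5, 12.2 and 14.3 FPKM with DMSO and at 12.2, 12.8 and 14.02 with quisinostat, ratios of -1.12, 0.07 and -0.03. As deposited, the pair was therefore low together in RT4 only, and in SW780 SARS2 alone was past the limit. With the GC correction MRPS12 had -0.52, -0.37 and 0.13 and SARS2 had -1.96, -0.52 and -2.26. Both were then below -0.3 in RT112 as well as in RT4. The other such pair of the set, MRPL46 and MRPS11 on chromosome 15 with starts 34 bases apart, had ratios of 0.28, 0.23 and 0.05 for MRPL46 and -0.17, 0.89 and 0.61 for MRPS11.

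WARS2 was likewise below its cytosolic counterpart in RT4 and SW780, and in RT112 too. WARS had 23.3, 18.8 and 32.8 FPKM with DMSO and 40.2, 18.4 and 52.8 with quisinostat, ratios of 0.79, -0.03 and 0.69, whereas those of WARS2 were all below -0.3. Over the 13 enzymes with a counterpart in the table, the mitochondrial ratio was the lower of the pair in 9 in RT4, in 2 in RT112 and in 8 in SW780, and with the GC correction in 9, 3 and 7. LARS2, the leucine enzyme, was at 16.8, 6.06 and 8.56 FPKM with DMSO and 7.74, 4.60 and 8.03 with quisinostat, ratios of -1.12, -0.40 and -0.09. CARS2, the cysteine enzyme, was slightly above 0 in all lines with ratios of 0.11, 0.22 and 0.26, and EARS2, on a locus with GGA2, had 0.39, 0.01 and -0.28. The 20 cytosolic synthetases had medians of 0.10, -0.37 and 0.01, and corrected ones of -0.16, -0.36 and -0.0030.

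**Figure D3:**
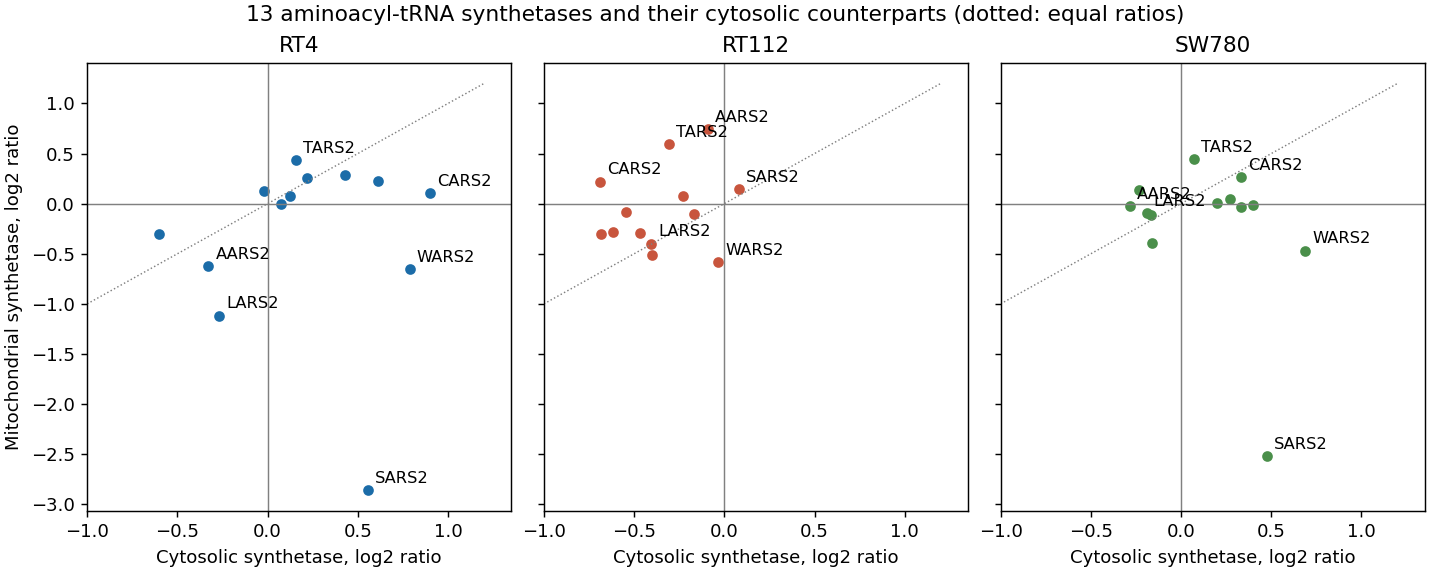
Each point is an amino acid with a mitochondrial and a cytosolic synthetase; the horizontal axis is the log2 ratio of the cytosolic gene, the vertical axis that of the mitochondrial gene, and the dotted line marks equal ratios. SARS2 lies at -2.86 in RT4 and -2.52 in SW780 while SARS lies at 0.56 and 0.48.

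Among the translation factors, GFM2, which splits the ribosome for recycling, showed the largest ratios. It had 9.05 FPKM in RT4, 18.6 in RT112 and 19.9 in SW780 with DMSO and 21.4, 19.8 and 39.0 with quisinostat, ratios of 1.24, 0.09 and 0.97. The limma log2 fold change was 0.72 ± 0.26 (SE, n = 3 lines), with an adjusted p of 0.34 in limma. GFM1, the translocase of elongation, differed in direction, from 13.4, 33.8 and 22.2 FPKM to 18.9, 23.1 and 24.3, ratios of 0.50, -0.55 and 0.13. TUFM, elongation factor Tu and the most abundant factor, had 75.8, 56.2 and 76.6 FPKM with DMSO and 51.9, 58.3 and 74.0 with quisinostat, so that RT4 alone was past the limit, at -0.55. With the GC correction its ratios were -0.03, -0.33 and 0.08, and RT112 alone was past it. Its exchange factor TSFM stayed within 0.3 in each line (0.18, 0.16 and 0.02). The initiation factors MTIF2 and MTIF3 had ratios of -0.09, -0.49 and -0.06, and of 0.44, -0.22 and 0.19. In RT4 the corrected ratios of GFM1 and MTIF3 came to 0.07 and 0.01, within the limit, and that of MTIF2 to -0.51, past it. DAP3, the GTP-binding protein of the small subunit, had 0.04, -0.35 and 0.15.

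POLRMT, the RNA polymerase of mitochondria, differed in direction between lines. With DMSO it was at 8.82, 3.24 and 1.77 FPKM and with quisinostat at 1.83, 5.92 and 0.92, ratios of -2.27, 0.87 and -0.94. RT112 was thus the line with the higher level under treatment, and RT4 and SW780 the lines with the lower. TFB1M, which methylates the small rRNA, went from 5.97 to 17.2 FPKM in RT4, a ratio of 1.52 and the highest of the set, and had 0.06 and 0.20 in RT112 and SW780. TFB2M, which opens the promoter for POLRMT, had 0.34, -0.61 and 0.12. TFAM, which packages mitochondrial DNA and starts its transcription, had 8.88, 14.3 and 11.3 FPKM with DMSO and 7.61, 9.56 and 10.46 with quisinostat, and its ratios of -0.22, -0.58 and -0.11 were below 0 in each line. LRPPRC, which stabilises mitochondrial mRNAs, had 29.7, 38.6 and 26.1 FPKM with DMSO and 35.0, 24.6 and 25.4 with quisinostat, ratios of 0.24, -0.65 and -0.04. In RT112, 3 of these 5 genes were below -0.3 (60%, all loci 25.2%).

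**Figure D4:**
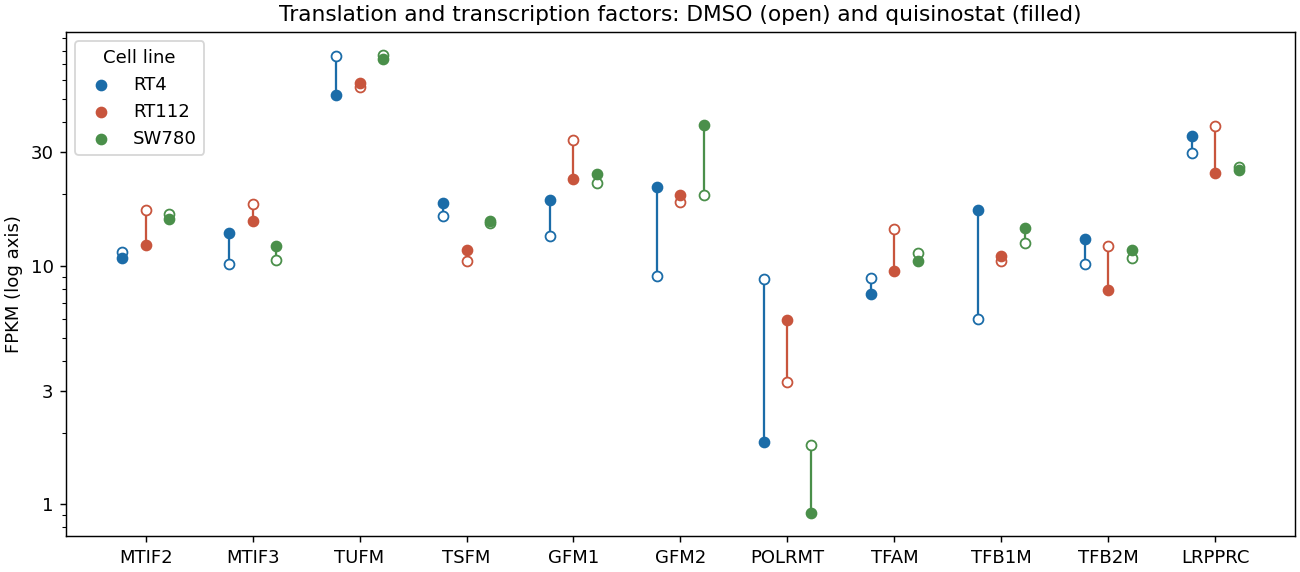
FPKM on a log axis for 6 translation factors and 5 genes of transcription and RNA stability, with DMSO (open circles) and quisinostat (filled circles) in each cell line; a vertical line joins the libraries of a line. POLRMT moves from 8.82 down to 1.83 in RT4 and from 3.24 up to 5.92 in RT112, and GFM2 moves up in RT4 and SW780.

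Outside the 7 genes below -0.3 in all 3 lines, the lowest means of the large subunit belonged to MRPL53, MRPL54 and MRPL4. The lowest of the small subunit belonged to MRPS34. MRPL4, which lines the exit tunnel, had 21.2, 8.52 and 6.44 FPKM with DMSO and 3.54, 15.1 and 2.96 with quisinostat, ratios of -2.58, 0.82 and -1.12. MRPL54 had 34.4, 27.4 and 13.1 FPKM with DMSO and 7.55, 28.3 and 7.36 with quisinostat, ratios of -2.19, 0.05 and -0.83. MRPS34, a small-subunit protein with no bacterial homologue, had 20.0, 24.7 and 29.4 FPKM and then 8.005, 24.2 and 21.8, ratios of -1.32, -0.03 and -0.44. In these 3 genes the low libraries were those of RT4 and SW780, whereas RT112 was near 0 or above. The GC correction turned this pattern for MRPS34, whose corrected ratios of -0.08, -0.97 and -0.07 were low in RT112 alone, and brought MRPL54 to -1.32, -0.59 and -0.58. MRPL53 was different, with ratios of -2.33, -1.35 and 0.68 at levels of 0.60 to 4.64 FPKM.

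The highest means belonged to MRPL13, MRPL33 and MRPL52 of the large subunit and to MRPS18C, MRPS11 and MRPS10 of the small subunit. MRPL13 had 40.3, 71.9 and 61.8 FPKM with DMSO and 81.0, 64.5 and 86.3 with quisinostat, ratios of 1.01, -0.16 and 0.48. MRPS18C, the counterpart of bacterial S18, had 8.07, 5.13 and 3.54 FPKM and then 14.4, 6.04 and 5.28, ratios of 0.83, 0.23 and 0.58, while its relative MRPS18B was below -0.3 in every line. MRPS10 had 0.42, -0.27 and 0.33. MRPL33 and MRPL52 share their loci with BABAM2 and with MMP14, a matrix metalloproteinase gene, and had ratios of 0.69, 0.23 and 0.41, and of 0.08, 0.95 and 0.14.

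The 3 lines resembled each other unequally. Across the 104 genes Spearman's rho between the ratios of RT4 and SW780 was 0.56, and it was -0.15 between RT4 and RT112 and -0.04 between RT112 and SW780; these are descriptions over genes that share libraries. With the GC correction the values were 0.49, 0.23 and 0.18, so that both negative ones changed sign. Of the 42 genes below -0.3 in RT4, 20 were also below it in SW780 and 11 in RT112, while 10 were above 0.3 in RT112. All loci showed 17.9% below in both RT4 and SW780 (19.2% here) and 14.4% below in RT4 and above in RT112 (9.62% here). Ratios stayed within 0.3 in all 3 lines for 18 genes (17.3%, all loci 7.12%).

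The ratios moved with the GC content of the transcripts, in opposite directions in RT4 and RT112. Over the 104 genes Spearman's rho with GC content reached -0.69 in RT4, was 0.48 for RT112 and came to -0.38 for SW780, beside -0.49, 0.44 and -0.22 over 8407 loci with a GC value. The 34 genes of highest GC content (52.7% to 71.9%) had medians of -0.70, 0.05 and -0.11, and the 34 of lowest (35.0% to 44.2%) had 0.30, -0.40 and 0.12. POLRMT at 66.3% GC, MRPL4 at 64.9% and MRPS34 at 64.5% are among the former, GFM2 at 42.8%, TFB1M at 43.1% and MRPL13 at 42.2% among the latter.

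**Figure D5:**
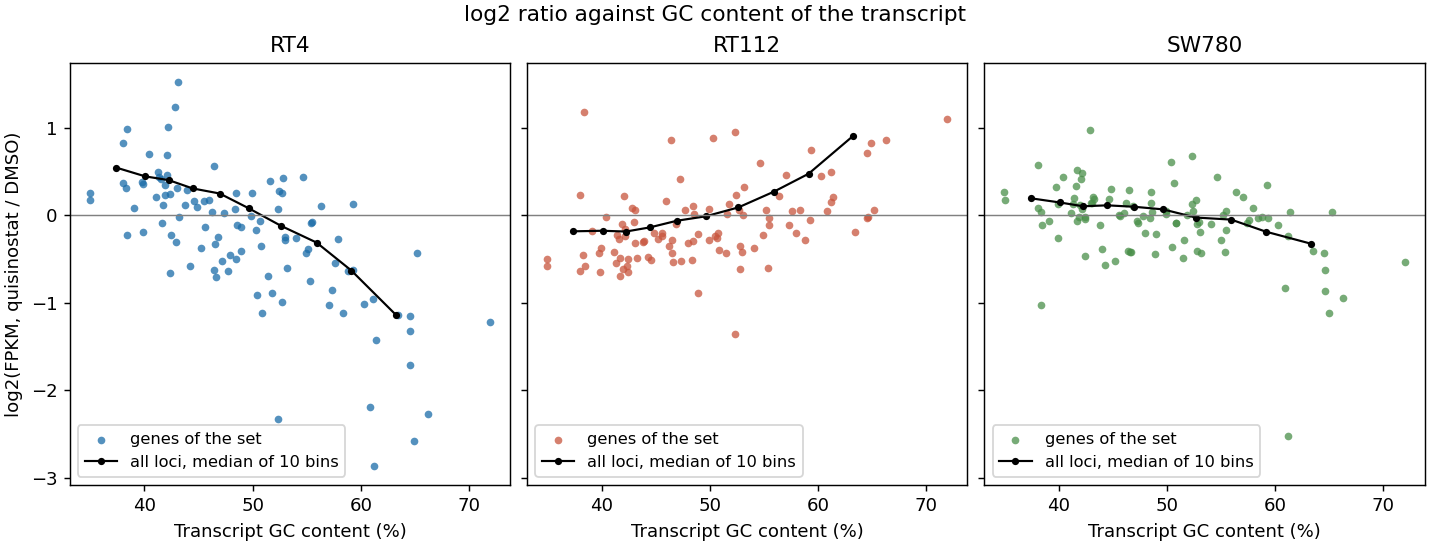
Log2 ratio (vertical axis) against transcript GC content in percent (horizontal axis) for the 104 genes in each cell line, with black points for the median of all loci in 10 bins of equal size by GC content. The medians of all loci run from 0.55 down to -1.14 in RT4, from -0.18 up to 0.91 in RT112 and from 0.20 down to -0.32 in SW780, and the coloured points slope the same way.

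After a smooth curve of ratio on GC content was subtracted in each line, the medians of the 104 genes were -0.19, -0.26 and -0.04. In RT4 41 genes were then below -0.3 (all loci 33.4%) and 16 above 0.3 (all loci 35.6%), in RT112 44 below (24.7%) and 8 above (28.1%), and in SW780 21 below (28.6%) and 15 above (30.5%). Below -0.3 in all 3 lines were 10 genes (9.62%, all loci 7.73%), the 7 named above together with SARS2, MRPL54 and MRPL35, and above 0.3 in all 3 were TARS2 and MRPL33 (1.92%, all loci 11.4%). MRPL33 shares its locus with BABAM2 and was corrected at the mean GC content of both genes. Its values of 0.43, 0.32 and 0.32 lie near the limit in RT112 and SW780, and a correction at its own GC content was not made. WARS2 had corrected ratios of -1.05, -0.42 and -0.58, SARS2 of -1.96, -0.52 and -2.26 and GFM2 of 0.86, 0.24 and 0.86. POLRMT and MRPL4 lost their opposite sign in RT112, with corrected values of -0.86, -0.20 and -0.52, and of -1.30, -0.14 and -0.74. MRPL3, as deposited past the limit in RT112 alone, was also past it in RT4 with a corrected ratio of -0.62. LRPPRC in RT4 went from 0.24 to -0.15, and CARS2 in RT112 from 0.22 to -0.08.

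Genes of the surrounding pathways were read from lists and counted in the same way. Of 23 factors of mitoribosome assembly and rRNA modification, 15 were below -0.3 in RT4, 8 in RT112 and 9 in SW780, and 3 were above 0.3 in each, with medians of -0.61, -0.17 and -0.15. These are shares of 65.2%, 34.8% and 39.1% below, beside 33.5%, 25.2% and 28.2% of all loci, and of 13% above, beside 40.3%, 36% and 32.8%, against which the smaller lists that follow may also be read. With the GC correction the medians were -0.26, -0.30 and -0.08. NSUN4, an rRNA methyltransferase, had 6.21, 2.91 and 3.99 FPKM with DMSO and 0.70, 1.03 and 2.23 with quisinostat, ratios of -3.16, -1.50 and -0.84. RPUSD4, a pseudouridine synthase, had ratios of -1.45, -0.49 and -0.32, and the GTPase MTG1 had -1.41, 0.22 and -0.88. Both NSUN4 and RPUSD4 were therefore below the limit in all 3 lines. Of 4 mitoribosomal proteins whose symbols follow another scheme, 3, 1 and 2 were below -0.3 and 1, 1 and 0 above 0.3, with GADD45GIP1 at -1.78, 0.68 and -0.59. Of 15 genes for mitochondrial DNA maintenance and RNA processing, 3, 5 and 2 were below -0.3 and 4, 2 and 5 above 0.3. MTERF1, a transcription termination factor, had 1.08, 0.82 and 0.51, and TBRG4 had -1.99, 0.17 and -0.32. Of 11 genes of tRNA modification, release, recycling and membrane insertion, 3, 6 and 2 were below and 3, 1 and 2 above, with GUF1, a translational GTPase, at 1.31, 1.30 and 0.57. Among 5 regulators of mitochondrial gene expression, MYC had ratios of -2.72, -0.83 and -0.49, PPRC1, on a locus with another name, -1.01, -0.52 and -0.59, and GABPB1, the beta subunit of GABP, -1.77, -1.26 and 0.79.

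The mitochondrially encoded genes are what these ribosomes translate or consist of. They occupied 12 loci, with medians of -0.28, 0.11 and -0.04 in RT4, RT112 and SW780, and 6, 0 and 3 of them were below -0.3 and 4, 2 and 0 above 0.3. Their corrected medians were -0.58, 0.20 and -0.15. MT-ND6, which is encoded on the other strand than the remaining protein genes, had 1136, 884 and 1297 FPKM with DMSO and 1661, 1281 and 1432 with quisinostat, ratios of 0.55, 0.54 and 0.14. MT-ND5, which is not on that other strand, had similar ratios of 0.46, 0.39 and 0.12. MT-ND2 had ratios of -0.60, -0.26 and -0.36. The libraries were made from polyadenylated RNA, and how fully each mitochondrial transcript was captured was not tested. Fewer transcripts per cell and a smaller mitochondrial share of all RNA cannot be told apart in bulk libraries.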

How the data were processed

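RNA of 6 libraries (RT4, RT112 and SW780 cells with DMSO or quisinostat, 1 each) was analysed from the deposited table. The authors isolated polyadenylated RNA, prepared stranded libraries, aligned reads with HISAT2 2.2.1, assembled transcripts with StringTie 2.2.1 on GRCh38 (versions from the submitters' processing notes) and obtained gene-level values with Ballgown. FPKM is the unit that was deposited; depth, annotation release and strand setting are not given in the sources used here, so no counting interval could be given.

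One value per assembled locus was used. Log2 ratios without a pseudocount were formed within each line, for 9112 loci with no 0 in any library. limma 3.58.1 (R 4.3.3) was fitted to log2(FPKM + 1) over loci with a mean of at least 1 FPKM, with cell line as a block, because the libraries of a pair come from the same line, a trend of variance on mean, and p-values adjusted after Benjamini-Hochberg. This scale understates changes of low genes. GC content of a gene was that of its longest coding transcript in GENCODE 29, and the correction was a lowess curve with a span of 0.3 per line. For a locus with more than 1 name the correction used the mean GC content of its named genes. The 13 genes on such loci were thus not corrected at their own GC content. Both steps were tested on simulated data. Python 3.11.15 with statsmodels 0.14.6 was used.

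Members and lists were chosen with earlier results of these data known. Named genes were the translation and transcription factors, DAP3, every gene past 0.3 in the same direction in all 3 lines, the 3 lowest and 3 highest by mean ratio among large-subunit, small-subunit and synthetase genes, the 2 highest and 2 lowest by mean FPKM with DMSO, and the 3 with the widest range of ratios. From other lists at most 3 genes with the largest absolute mean ratio were named. MRPL35, MRPL46, MRPL48, MRPS7, MRPS12, MRPS27, SARS and the further genes of the closing section were named after their values were seen. Alternatives were pseudocounts, scalings, the GC correction, filters, single-name loci, limits of 0.5 and 1, leaving out a line, and in limma no trend, quantile normalization and no block.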

Additional observations from a re-analysis of the deposited data

Results flagged for a closer look

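A closer look is warranted at 22 of the 104 genes, because their log2 ratios were past 0.3 in opposite directions in a pair of lines (21.2%, all loci 29.3%). With 1 library per line and treatment the difference was not tested, and all loci show such pairs too: 14.4% were below in RT4 and above in RT112, and 8.21% the reverse. In 10 genes RT4 was lowest and RT112 highest. These were MRPL4 (-2.58 in RT4, 0.82 in RT112, difference 3.40), POLRMT (-2.27 in RT4, 0.87 in RT112, difference 3.13), MRPL38 (-1.71 in RT4, 0.71 in RT112, difference 2.43), MRPL41 (-1.22 in RT4, 1.11 in RT112, difference 2.33), MRPL43 (-1.02 in RT4, 0.46 in RT112, difference 1.48), MRPL28 (-1.01 in RT4, 0.45 in RT112, difference 1.46), MRPL23 (-0.96 in RT4, 0.49 in RT112, difference 1.45), AARS2 (-0.62 in RT4, 0.75 in RT112, difference 1.37), MRPS25 (-0.52 in RT4, 0.42 in RT112, difference 0.94), MRPL49 (-0.60 in RT4, 0.32 in RT112, difference 0.92). In 8 genes RT112 was lowest and RT4 highest. These were GFM1 (-0.55 in RT112, 0.50 in RT4, difference 1.04), MRPS5 (-0.61 in RT112, 0.43 in RT4, difference 1.04), MRPL47 (-0.64 in RT112, 0.37 in RT4, difference 1.01), TFB2M (-0.61 in RT112, 0.34 in RT4, difference 0.95), MRPS31 (-0.43 in RT112, 0.39 in RT4, difference 0.82), MRPL19 (-0.45 in RT112, 0.31 in RT4, difference 0.76), MRPS14 (-0.38 in RT112, 0.36 in RT4, difference 0.74), MRPS28 (-0.31 in RT112, 0.32 in RT4, difference 0.63). The remaining 4 were MRPL53 (-2.33 in RT4, 0.68 in SW780, difference 3.01), MRPL42 (-1.03 in SW780, 1.19 in RT112, difference 2.22), MRPS30 (-0.41 in SW780, 0.87 in RT112, difference 1.27), MRPS33 (-0.70 in RT112, 0.52 in SW780, difference 1.22). MRPL38, MRPL19 and MRPS28 share their loci with AC087289.3, AC005034.3 and TPD52, so the ratios of each such locus belong to both genes together. Dose moves with all these comparisons, and GC content with some of them. MRPL42, at 38.4% GC, had -1.03 in SW780 and 1.19 in RT112 as deposited, and -1.19 and 1.36 with the GC correction. After the GC correction 8 of the 22 were still past 0.3 in opposite directions (MRPL41, MRPL42, MRPL43, MRPL53, MRPS5, MRPS25, MRPS30 and MRPS33), and MRPL4 and POLRMT were below 0 in all 3 lines; the part of dose was not tested.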

How the results depend on the processing

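The 7 genes below -0.3 in all 3 lines were kept with pseudocounts of 0.1 and 1, with rescaling to the same FPKM sum, with centring, which gave 9, and with the GC correction, which gave 10. A minimum mean of 5 FPKM left 6, without WARS2, and single-name loci left 6, without MRPS6. TARS2 was above 0.3 in all 3 lines under each of these settings, and the GC correction gave 2 genes there in place of 1 and 8 in place of 15 above 0.3 in RT112. With a limit of 0.5 the genes below it numbered 19 in RT112 and 10 in SW780, those above it 8 in RT4 and 5 in SW780, and 0 passed it in all 3 lines in either direction. With a limit of 1 there were 15, 1 and 3 below it in RT4, RT112 and SW780 and 3, 2 and 0 above it, and 0 in all 3 lines. Shares of all loci at limits of 0.5 and 1 were not counted. Leaving out a line, between 7 and 20 genes were below -0.3 in both remaining lines and between 2 and 8 above 0.3. Without RT112 these were 20 (19.2%, all loci 17.9%) and 8 (7.69%, all loci 23%). Without SW780 they were 11 (10.6%, all loci 8.18%) and 3 (2.88%, all loci 15.9%). Without RT4 they were 7 (6.73%, all loci 9.49%) and 2 (1.92%, all loci 15.9%). With the GC correction 15 of the 111 ratios of named genes changed sign. Of these, 4 had been past 0.3, MRPL4 and POLRMT in RT112, which came to -0.14 and -0.20, and MRPS10 and TFB2M in RT4, which came to -0.0021 and -0.0615. The other 11 were within 0.3 as deposited, and 3 of them came past it, SARS2, MRPL54 and TUFM in RT112 at -0.52, -0.59 and -0.33. TUFM in RT4 went from -0.55 to -0.03. In limma 0 loci passed an adjusted p of 0.05 under any of the 10 alternatives, including the fit with no replicate block (0 of the 104 genes, 0 of all loci), and the lowest adjusted p of the 104 genes in limma ranged from 0.12 without RT112 to 0.97 with no block. At an unadjusted p under 0.05, the genes lower ranged from 0 without RT4 to 17 with the GC correction, a fit in which 11.2% of 8646 loci were lower. FPKM without read counts leave the precision of low genes such as MRPL53 and POLRMT unknown, and the spread between lines includes the differences in dose.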
